A study of Mus musculus with 44 samples.

Results

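The 7 serpins described here were Serpina3n, Serpinb1a, Serpinb6a, Serpine2, Serpinh1, Serpinf1 and Serpini1, taken by gene name from 3 tables of FPKM, a level corrected for transcript length and for the size of the library. They are 7 of the 69 genes with a Serpin name, and of 45882 genes in all, in the tables of naive tissue and of satellite glial cells (SGCs) after surgery. The neuron table holds 12170 genes, 17 of them with a Serpin name, and includes 6 of the 7. Serpine2 was not among its genes. Serpina3n was chosen because it was higher in SGCs 14 days after nerve ligation, so values from that contrast are given for these genes as a description, with no test.

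Serpins are protease inhibitors that work as suicide substrates. The target protease cuts an exposed loop of the serpin, which then snaps into the body of the inhibitor and traps the enzyme in a covalent complex. Some family members have lost this activity, such as Serpinh1, the collagen chaperone of the endoplasmic reticulum known as HSP47, and Serpinf1, the secreted pigment epithelium-derived factor. Serpina3n, a secreted inhibitor of leukocyte serine proteases, is widely used in mice as a marker of reactive astrocytes.

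The libraries were 44 bulk RNA libraries in 12 groups, all from C57BL/6 mice and dorsal root ganglia (DRGs), where sensory neurons have their cell bodies and SGCs enwrap them. From naive mice aged 9 weeks there were 4 libraries of sorted SGCs and 4 of whole DRGs. From mice aged 9 to 11 weeks there were SGC libraries 3 days after full ligation of the sciatic nerve (n = 4) or a sham operation (n = 4), and 14 days after the same ligation (n = 4) or sham operation (n = 4). Isolated neurons were taken 8 days after partial ligation or sham operation, with 3 libraries per sex and operation. A further 4 neuron libraries came from the ligated side and 4 from the opposite side of ligated mice, with no sex on the labels. SGCs came from L3 and L4 ganglia and were fixed, stained with antibodies and sorted by flow cytometry, whole DRGs were fixed after dissociation and left unsorted, and neurons of L3 to L5 were purified unfixed with magnetic beads. The labels do not say which libraries share an animal or pool animals, so p-values measure only the spread between libraries. In bulk RNA, fewer cells of a type and less RNA per cell cannot be told apart.

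The 15 SGC markers checked were all above a mean of 1 FPKM in every SGC group, with sums of 18631 to 26215 FPKM in naive SGCs and 6798 to 10291 FPKM in whole DRGs. Of 15 neuron markers 14 were in the tables, and their summed level was 122 to 294 FPKM in naive SGC libraries and 3110 to 5684 FPKM in whole DRGs. In SGC libraries after surgery that sum ran between 204 and 985 FPKM, and in the isolated neurons between 9740 and 14705 FPKM. Only 5 of the 15 SGC markers and 1 of 14 macrophage markers are in the neuron table, so these cells could be checked there only in part. The 3 tables were scaled separately, so a level in one cannot be compared with a level in another. No pair of libraries held identical values, and read totals are not in the files, so the depth of each library is unknown.

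On GRCm38, with identifiers as in the tables and annotation from GENCODE M21, Serpina3n (ENSMUSG00000021091) lies at chr12:104406729-104414329 on the + strand. Serpinb1a (ENSMUSG00000044734, chr13:32842092-32851185) and Serpinb6a (ENSMUSG00000060147, chr13:33917918-34002794) lie on the - strand of the same chromosome. Serpine2 (ENSMUSG00000026249, chr1:79794197-79861180), Serpinf1 (ENSMUSG00000000753, chr11:75409769-75422701) and Serpinh1 (ENSMUSG00000070436, chr7:99345376-99353239) are on the - strand, and Serpini1 (ENSMUSG00000027834, chr3:75557547-75643495) is on the + strand. FPKM covers the transcripts of each whole gene.

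The sequence before the annotated RefSeq transcript start of each gene, which the choice of the serpins did not use, was compared. RefSeq windows of 250 bases upstream of the start (GRCm38.p6) were at hand for 6 of the 7 genes, and not for Serpinb1a. Serpina3n, chosen for its level after ligation, and Serpinh1, not so chosen, are shown 5′ to 3′ with every CpG step in capitals. They set a CpG-poor window beside one with more CpG steps than the median window. The first lies at chr12:104406458-104406707 on the + strand and the second at chr7:99353240-99353489 on the - strand.
Serpina3n: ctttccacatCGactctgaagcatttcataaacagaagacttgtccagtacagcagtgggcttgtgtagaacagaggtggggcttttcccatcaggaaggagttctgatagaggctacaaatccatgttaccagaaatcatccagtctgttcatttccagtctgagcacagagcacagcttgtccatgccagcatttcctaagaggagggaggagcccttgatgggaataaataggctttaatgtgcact
Serpinh1: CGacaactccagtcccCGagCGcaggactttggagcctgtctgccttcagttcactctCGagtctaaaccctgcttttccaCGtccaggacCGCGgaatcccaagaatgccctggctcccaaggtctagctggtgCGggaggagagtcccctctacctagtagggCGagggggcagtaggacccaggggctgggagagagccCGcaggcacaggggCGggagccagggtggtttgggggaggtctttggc
The Serpina3n window held 1 CpG step and 46.4% G and C, and the Serpinh1 window 11 CpG steps and 63.6%. Over all 32851 windows the median was 6 CpG steps and 52.4%, and 18.8% of the windows had as few CpG steps as that of Serpina3n. Serpine2 stood at the other end, with 34 CpG steps and 78.8% G and C, and 97% of windows had no more CpG steps than that. Serpini1 had 13 CpG steps and Serpinf1 had 2, while Serpinb6a, which has windows for 2 starts, had 20 and 2. Those of Serpine2, Serpinf1 and the CpG-poor one of Serpinb6a overlap exons of the same gene in GENCODE, and the other Serpinb6a window overlaps an exon of Ripk1, so they are not all sequence outside the gene. The windows of Serpina3n, Serpinh1 and Serpini1 overlap no GENCODE exon.

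A few short motifs were searched for on both strands of these windows. The STAT motif TTCNNNGAA stood in 7.02% of all windows and, among the serpins, in a Serpinb6a window as TTCCGGGAA. The box CCAAT stood in 33.8% of all windows and, among the serpins, in those of Serpinf1, Serpini1 and Serpinb6a. The box TATAAA stood in 12.4% of all windows and in none of the serpin windows. Serpina3n's window held none of the 3 motifs, which says only that these letters are not in its 250 bases.

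Naive sorted SGCs and whole DRGs were set against each other to learn which serpins were higher in the sorted SGC libraries and which in the whole ganglion. Serpine2 and Serpinh1 rose in SGCs relative to DRGs, while Serpinb1a, Serpinb6a, Serpinf1, Serpini1 and Serpina3n fell. All 7 passed the test, against 44.9% of the 12907 genes tested (16.9% higher, 27.9% lower), and for all 7 the libraries of the groups did not overlap, which was so for 43.8% of the genes. With close to every other gene called in this contrast, the count itself says little about serpins, and the sizes and directions are the result. The test was limma's two-sided moderated test on log2(FPKM + 1) with Benjamini-Hochberg adjustment over every gene of the comparison, and called means an adjusted p under 0.05.

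**Figure D1:**
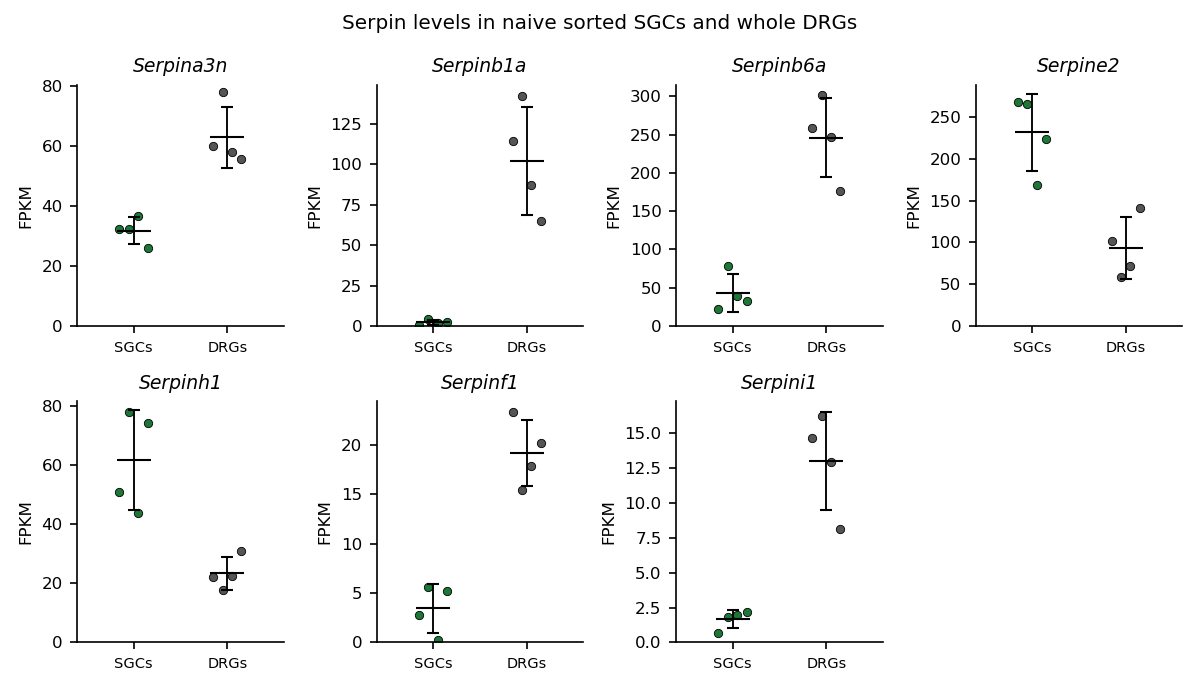
FPKM of the 7 serpins in naive libraries, sorted SGCs in green on the left and whole DRGs in grey on the right of each panel. Points are libraries and bars the mean with SD (n = 4 each). Serpine2 and Serpinh1 were higher in every SGC library than in any DRG library, and the other 5 lower.

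Serpine2, also called protease nexin 1, is a glia-derived inhibitor of thrombin and plasminogen activators that was first found for its effect on neurite growth. It stood at 268, 266, 169 and 224 FPKM in SGC libraries 1 to 4, against 102, 58.3, 71.4 and 141 FPKM in DRG libraries 1 to 4. Every SGC library was above the highest DRG library. The log2 difference was 1.36 ± 0.28 (SE; limma adjusted p = 0.00433), and Serpine2 made up 50.4% of the summed FPKM of all serpins in naive SGCs and 14.4% in DRGs.

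Serpinh1, which binds procollagen and escorts it out of the endoplasmic reticulum, was at 50.8, 77.9, 43.9 and 74.2 FPKM in SGCs, against 22.3, 17.6, 22.4 and 31.0 FPKM in DRGs. The lowest SGC library was above the highest DRG library. Its log2 difference was 1.35 ± 0.23 (limma adjusted p = 0.00171). Of 26 collagen and collagen folding genes tested, 11 were higher and 3 lower in SGCs, with Col5a2 at 1.18, Sparc (a matrix protein that binds collagen) at 1.13, Col6a1 at -1.16 and Col6a2 at -1.12. The median of the list was 0.47, against -0.12 over all genes.

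The intracellular clade B serpins Serpinb1a and Serpinb6a were lower in SGCs. Serpinb1a, which inhibits the elastase-like proteases of neutrophils, had 0.623, 4.12, 2.06 and 2.31 FPKM in SGC libraries, against 114, 142, 87.1 and 65.2 FPKM in DRG libraries. It was near the floor in every SGC library and abundant in every DRG library, and the log2 difference of -5.03 ± 0.36 (limma adjusted p = 2.53e-05) ranked 70 by size among the 12907 genes. Serpinb6a, an intracellular inhibitor of trypsin-like proteases and cathepsin G, had 22.3, 78.2, 38.6 and 32.1 FPKM in SGCs, against 259, 301, 247 and 176 FPKM in DRGs. SGC library 2 was the highest of its group and still below every DRG library, with a log2 difference of -2.62 ± 0.35 (limma adjusted p = 0.000441). Serpinb6a was the largest serpin of the whole ganglion, with 9.12% of the summed serpin FPKM in SGCs and 36.7% in DRGs.

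The remaining secreted serpins were also lower in SGCs. Serpini1, neuroserpin, an inhibitor of tissue plasminogen activator made by neurons, was at 1.66 ± 0.66 FPKM in SGCs and 13.0 ± 3.52 FPKM in DRGs (SD, n = 4 each; log2 difference -2.39 ± 0.27, limma adjusted p = 0.000183). Serpinf1 was at 3.46 ± 2.48 FPKM in SGCs and 19.2 ± 3.35 FPKM in DRGs (-2.43 ± 0.49, limma adjusted p = 0.00399). Neither gene's groups overlapped.

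Serpina3n showed the smallest difference of the 7. Its values were 32.3, 32.5, 36.6 and 26.0 FPKM in SGC libraries, against 60.2, 78.0, 58.1 and 55.7 FPKM in DRG libraries. All SGC libraries were below all DRG libraries, and the log2 difference was -0.96 ± 0.15 (limma adjusted p = 0.00117). Before injury, then, Serpina3n was detected in the sorted glia at 7.11% of the summed serpin FPKM, and in the ganglion at 9.44%.

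Cell type markers moved with these differences. The summed neuron markers are given above, and 10 neutrophil markers summed to 0 to 0.16 FPKM in SGCs and 559 to 633 FPKM in DRGs, while 14 macrophage markers summed to 3.61 to 5.82 FPKM in SGCs and 61.0 to 75.6 FPKM in DRGs. The part of neurons, neutrophils and macrophages in the 5 lower serpins was not tested. Endothelial markers were higher in SGCs, with sums of 263 to 470 FPKM in SGCs and 122 to 198 FPKM in DRGs. Of the 11 tested, 5 were called higher and 0 lower, beside 16.9% of all genes called higher. The part of endothelial cells in Serpine2 and Serpinh1 was not tested. The split of calls over all genes also depended on the scaling. With FPKM as deposited 2184 genes were higher and 3605 lower in SGCs, and after quantile normalization 3701 were higher and 2691 lower, with the median over all genes at -0.12 as deposited and 0.16 after it. All 7 serpins kept their direction and their call under that scaling, with Serpina3n at -0.73 and Serpine2 at 1.65.

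Lists of serpin partners held genes that were higher and genes that were lower in SGCs, beside 16.9% higher and 27.9% lower over all genes. Of 13 target proteases tested, 5 were higher and 6 lower in SGCs. Ctss and Ctsb, lysosomal cathepsins of which the first is typical of macrophages, were at -2.92 and -1.65, Cma1, a mast cell chymase, at -2.16, and Mmp14, a membrane-bound matrix metalloprotease, at 1.32. Of 13 receptors for proteases and for clearing serpin complexes, 3 were higher and 5 lower, with the lipoprotein receptor Vldlr at 1.51, Sorl1 at -3.46, Lrp8 at -1.19 and the protease-activated receptor F2rl2 at -3.48. Among 18 protease inhibitors outside the family, 6 were higher and 7 lower, led by Spock1 at -4.29 and the cystatin Cst6 at -2.09. Ctss, Cma1, Lrp8 and Cst6 were under 1 FPKM in every SGC library, so they were tested only because of the DRG libraries. Heat shock genes, tested because Serpinh1 is itself heat inducible, went the other way from it, with 3 higher and 9 lower of 18 and Hspb8 at -3.67, Hsp90aa1 at -2.76 and Hspb1 at -2.66.

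Of the other serpins, 6 were abundant enough to test in naive tissue, with 1 higher and 3 lower, beside 16.9% higher and 27.9% lower over all genes. The 3 lower were Serpina3g, Serpinb1b and Serpinb8. Serpinb1b and Serpinb8 were under 1 FPKM in every SGC library, so they were tested only because of the DRG libraries. Their direction was thus fixed by the filter, and their calls are a description. Serping1, the C1 inhibitor of the complement cascade, was at 73.5 ± 4.12 FPKM in SGCs and 55.4 ± 5.21 FPKM in DRGs (0.40 ± 0.11, limma adjusted p = 0.0183). Serpina3g, a close relative of Serpina3n, was at 0.62 ± 0.85 FPKM in SGCs and 19.3 ± 5.62 FPKM in DRGs (-3.74, limma adjusted p = 8.2e-05). Serpinb1b, a near copy of Serpinb1a, was at 0.058 ± 0.12 FPKM in SGCs and 13.1 ± 2.30 FPKM in DRGs (-3.73, limma adjusted p = 2.25e-06). The mouse Serpina3, Serpinb1 and Serpinb6 genes lie in clusters of similar copies, so how reads were divided among the copies is uncertain.

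The next question was how the serpins of SGCs respond to ligation of the sciatic nerve. At 3 days Serpina3n and Serpinb1a were the 2 of 7 whose ligated libraries all lay above all sham libraries, which was so for 1.79% of the 13924 genes tested. By limma 0 of the 7 were called, against 0.0646% of all genes, or 9 genes (6 higher, 3 lower). Serpina3n and Serpinb1a had an unadjusted p under 0.05, as did 9.11% of all genes, and the authors' deposited table calls 1 of the 7, Serpinb1a.

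**Figure D2:**
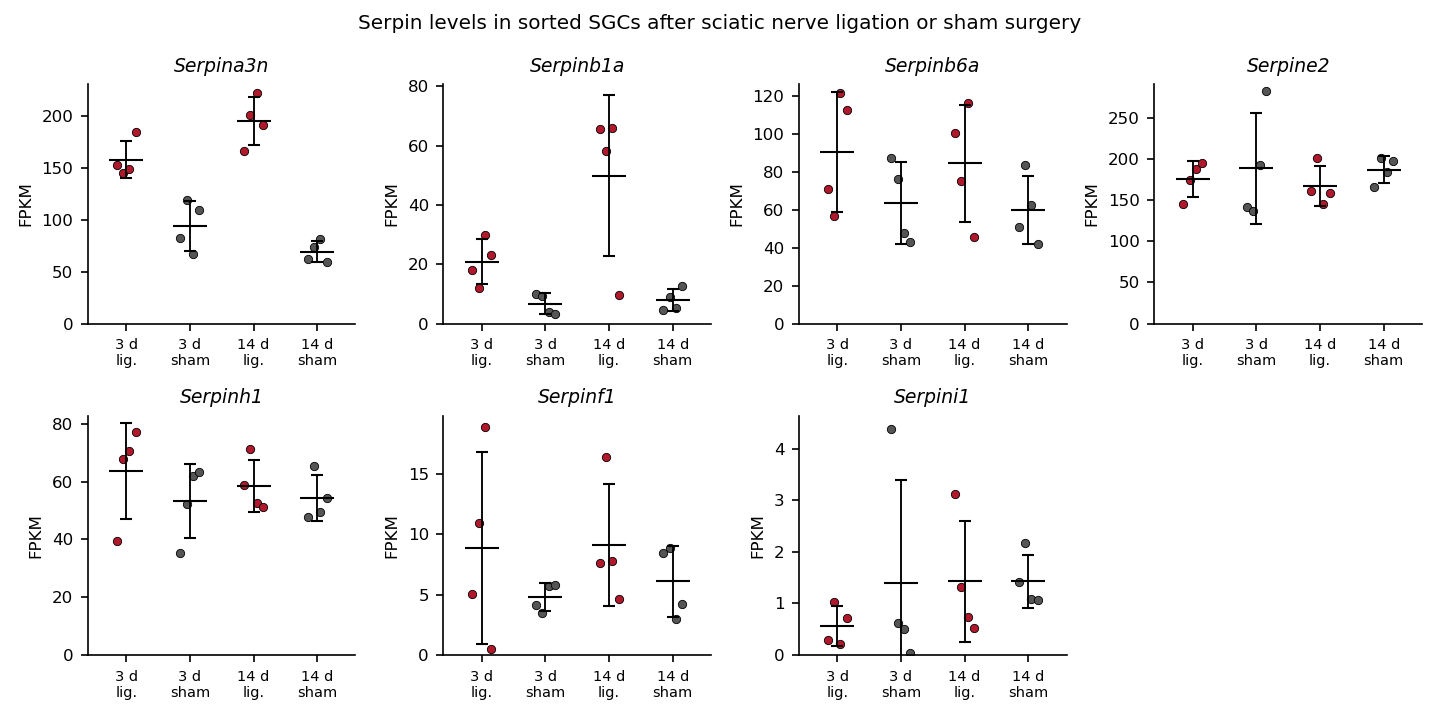
FPKM of the 7 serpins in sorted SGCs, ligated (red) left of sham (grey), at 3 and at 14 days. Points are libraries and bars the mean with SD (n = 4 per group), drawn from 0 upward. Serpina3n libraries lay between 145 and 184 FPKM at 3 days and between 167 and 223 FPKM at 14 days after ligation, above all sham libraries, and Serpinb1a libraries spread widely at 14 days after ligation.

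At 3 days Serpina3n was at 153, 145, 149 and 184 FPKM in ligated libraries 1 to 4, against 82.5, 119, 66.8 and 110 FPKM in sham libraries 1 to 4. The ligated libraries were close to each other and the sham libraries more spread, with no overlap. The log2 difference was 0.76 ± 0.18 (95% interval 0.39 to 1.14; limma adjusted p = 0.162), and the value in the authors' deposited table was 0.75 with an adjusted p of 0.0571.

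Serpinb1a was at 17.98, 12.1, 29.9 and 23.2 FPKM in ligated SGC libraries at 3 days, against 10.1, 9.34, 3.86 and 3.28 FPKM in sham libraries. Ligated library 2 came closest to the sham libraries. The log2 difference was 1.57 ± 0.55 (95% interval 0.40 to 2.74; limma adjusted p = 0.396). The authors' deposited table, made from counts, gave 1.69 with an adjusted p of 0.00978, so this gene passed 0.05 there and did not pass on the FPKM values.

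The other 5 serpins overlapped between ligated and sham SGCs at 3 days. Serpine2, the most abundant of them, was at 145, 175, 188 and 195 FPKM in ligated libraries and 142, 137, 192 and 283 FPKM in sham libraries. Its spread was wider in the sham group, and the log2 difference was -0.05 ± 0.20 (95% interval -0.47 to 0.37; limma adjusted p = 0.972). Serpinh1 was at 0.25 ± 0.22, Serpinb6a at 0.49 ± 0.33, Serpinf1 at 0.25 ± 0.62 and Serpini1 at -0.33 ± 0.44, with limma adjusted p between 0.694 and 0.937. Serpini1 was at or below 1.02 FPKM in all ligated libraries and at 4.38 FPKM in sham library 1, and without that library its difference was 0.16. Leaving out single libraries also turned the sign for Serpine2 and Serpinf1.

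At 14 days Serpina3n was at 167, 201, 223 and 191 FPKM in ligated SGC libraries, against 62.6, 73.8, 81.2 and 59.3 FPKM in sham libraries. Every ligated library was well above the highest sham library. The means of 195 ± 23.1 and 69.2 ± 10.1 FPKM (SD, n = 4 each) gave a ratio of 2.82 and a log2 difference of 1.49 ± 0.18, and the authors' deposited table gave 1.52. This is the contrast Serpina3n was chosen on, where 1 gene, 0.00718% of those tested, was called and 1.69% had ligated libraries all above sham libraries, and nothing is read from it here. Serpina3n took 27.6% of the summed serpin FPKM in ligated and 14.3% in sham SGCs at 14 days, and 25.5% in ligated and 18.9% in sham SGCs at 3 days. The share of Serpine2 at 14 days was 23.6% in ligated and 38.8% in sham SGCs, given likewise as a description.

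Among the 4 SGC groups after surgery, the mean level of Serpina3n was highest 14 days after ligation, followed by 3 days after ligation, 3 days after sham and 14 days after sham. Both ligated groups overlapped each other, as did both sham groups, and the gap without overlap lay between the ligated and the sham libraries. The effect of ligation was larger by 0.72 ± 0.25 at 14 days than at 3 days, given with no test. Naive SGCs had 31.9 ± 4.37 FPKM in their own table, which was scaled separately and cannot be set against the sham groups.

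Serpinb1a at 14 days was at 65.6, 58.3, 65.8 and 9.51 FPKM in ligated SGC libraries, against 4.72, 9.10, 5.25 and 12.5 FPKM in sham libraries. Ligated libraries 1 to 3 stood far above the sham libraries, and ligated library 4 fell among them, below sham library 4. The log2 difference was 2.29 ± 0.55 and the authors' deposited value 2.71. Serpinb6a was at 0.45 ± 0.33, Serpinf1 at 0.49 ± 0.62, Serpinh1 at 0.10 ± 0.22, Serpini1 at -0.09 ± 0.44 and Serpine2 at -0.17 ± 0.20, and the groups of all 5 overlapped. The effect of ligation in these 5 differed between the days by -0.14 to 0.25.

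Neuronal RNA differed between these SGC libraries. The 14 neuron markers summed to 562, 421, 735 and 794 FPKM in ligated libraries 1 to 4 and 985, 985, 414 and 204 FPKM in sham libraries 1 to 4 at 3 days. At 14 days they summed to 919, 878, 759 and 298 FPKM in ligated libraries and 460, 717, 627 and 333 FPKM in sham libraries. Ligated library 4 at 14 days was thus the lowest of its group in Serpinb1a and in neuron markers, but not in Serpina3n. Sham library 4 at 14 days was the lowest of its group in neuron markers and the highest in Serpinb1a, at 12.5 FPKM. A list of 20 genes of the injury response of sensory neurons summed to 1480 to 3392 FPKM in ligated and 150 to 415 FPKM in sham libraries at 3 days, and to 898 to 2018 FPKM in ligated and 225 to 341 FPKM in sham libraries at 14 days. At 3 days 5 of its 18 tested genes were called, all higher, among them the neuropeptide Gal (5.19) and the injury transcription factor Atf3 (3.36).

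Per 1000 FPKM of neuron markers, Serpina3n was at 203 to 344 in ligated and 83.8 to 538 in sham SGC libraries at 3 days, where the groups overlapped and the highest sham library was above every ligated one. At 14 days it was at 182 to 643 in ligated and 103 to 178 in sham SGC libraries, given as a description. In the separately scaled neuron table it was at 12.0 to 27.0 in ligated and 14.0 to 20.2 in sham libraries with a sex label. Serpinb1a, on the same measure, was at 32.0 to 86.8 in ligated and 8.37 to 37.6 in sham SGC libraries at 14 days, at 28.8 to 40.7 in ligated and 9.35 to 16.1 in sham SGC libraries at 3 days, and at 6.13 to 17.5 in ligated and 2.23 to 5.84 in sham neuron libraries. Per 1000 FPKM of the injury list, Serpinb1a was at 7.94 to 12.1 in ligated and 7.91 to 59.8 in sham SGC libraries at 3 days. At 14 days it was at 10.6 to 57.9 in ligated and 19.7 to 43.5 in sham SGC libraries. On this measure the Serpinb1a groups overlapped on both days. Serpina3n was at 44.0 to 103 in ligated and 264 to 764 in sham SGC libraries at 3 days on the same measure, with no overlap. Its values at 14 days, given as a description, were 82.7 to 213 in ligated and 206 to 305 in sham SGC libraries. The injury list itself was higher after ligation, so a ratio to it falls for any gene that rises less, whatever its source. The part of neuronal RNA in the Serpinb1a and Serpina3n values of SGC libraries was not tested, and these ratios cannot decide it. Ratios of SGC and neuron libraries come from fixed and unfixed preparations. Of 10 markers of repair Schwann cells, 6 were at a mean of at least 1 FPKM in ligated and 7 in sham libraries at 3 days, and Gap43 and Jun among them are also in the injury list. They summed to 562 to 746 FPKM in ligated and 433 to 521 FPKM in sham libraries at 3 days, with no overlap, as for Serpina3n and Serpinb1a. Of these markers 6 were tested at 3 days, 3 of them with a positive difference, and the median was 0.03 with 0 called. Gap43 by itself was at 201 ± 88.2 FPKM in ligated and 43.1 ± 20.5 FPKM in sham libraries. The sum thus does not show a rise of the list as a whole. At 14 days the repair markers summed to 446 to 707 FPKM in ligated and 443 to 552 FPKM in sham libraries. Ligated library 4 was again the lowest of its group. Endothelial markers summed to 733 to 1303 FPKM in ligated and 413 to 873 FPKM in sham libraries at 3 days. At 14 days they summed to 526 to 1050 FPKM in ligated and 429 to 747 FPKM in sham libraries. All 11 had a positive difference on each day, with 0 called. Their median was 0.74 at 3 days and 0.47 at 14 days, against -0.01 and -0.02 over all genes. Macrophage markers summed to 6.79 to 27.5 FPKM in ligated and 2.70 to 11.2 FPKM in sham libraries at 14 days. The part of endothelial cells and macrophages was not tested.

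**Figure D3:**
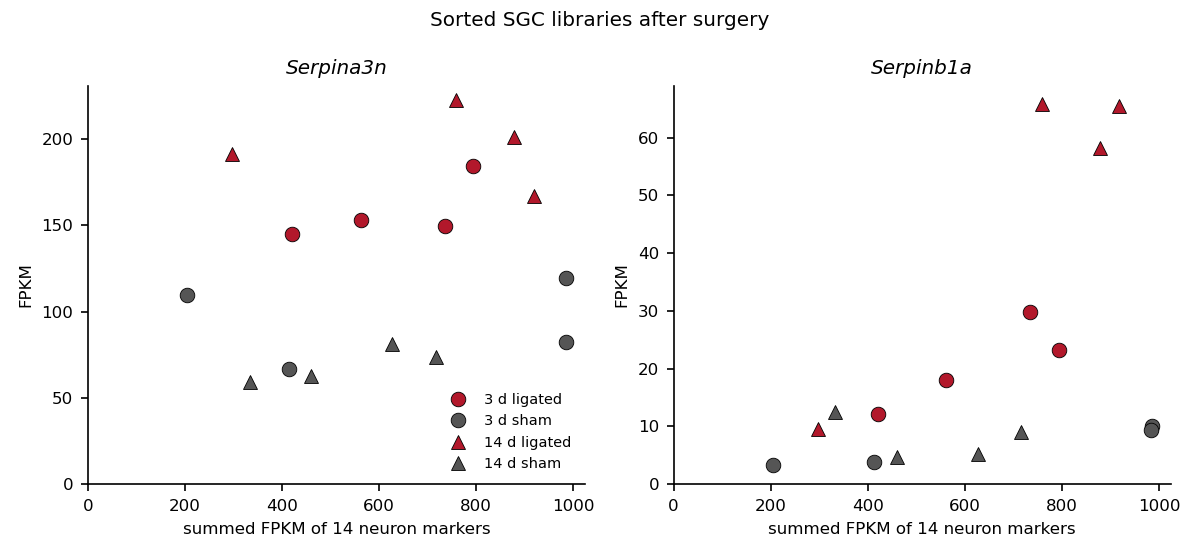
FPKM of Serpina3n (left) and Serpinb1a (right) against the summed FPKM of 14 neuron markers in the 16 SGC libraries after surgery. Circles are 3 days, triangles 14 days, red ligated and grey sham. Ligated libraries were above sham libraries in Serpina3n, with the 14-day libraries, used to choose this gene, shown as a description. At 3 days neuron markers summed to 421 to 794 FPKM in ligated and 204 to 985 FPKM in sham libraries. The ligated libraries thus did not cover the ends of the sham range. The ligated 14-day library with 298 FPKM of neuron markers was at 9.51 FPKM of Serpinb1a, among the sham libraries.

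The genes most like Serpina3n in pattern over these 16 libraries, among 4830 genes with a mean of at least 10 FPKM, were Flrt3 (Pearson r = 0.83), Basp1 (0.83), Smad1 (0.82), Srgn (0.81) and Myl12b (0.81). Flrt3 is a membrane protein of axon guidance and Basp1 a protein of growing axons, Smad1 carries bone morphogenetic protein signals, Srgn is a proteoglycan of secretory granules and Myl12b a myosin light chain. Of the serpins, Serpinb1a was at 0.73 and Serpinb6a at 0.51, and Serpinh1 (0.27), Serpinf1 (0.10), Serpine2 (-0.20) and Serpini1 (-0.23) followed Serpina3n little. These correlations describe the libraries, which share the operation as well as the cells.

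No gene of the lists around serpin function was called in SGCs after ligation. At 3 days this held for 13 target proteases, 15 receptors, 19 other inhibitors, 26 collagen genes, 18 heat shock genes, 24 genes of acute phase and cytokine signalling and 32 genes of reactive glia, whose median differences ran between -0.01 and 0.29, against -0.01 over all genes. At 14 days the medians ran between -0.05 and 0.45, the highest again that of the reactive glia list, which holds Serping1 and none of the 7 serpins. Serping1 was at 90.8 ± 10.8 FPKM in ligated and 67.4 ± 11.1 FPKM in sham SGCs at 3 days (0.43 ± 0.16, limma adjusted p = 0.428), and at 131 ± 23.3 FPKM in ligated and 81.5 ± 9.84 FPKM in sham SGCs at 14 days (0.67 ± 0.16, limma adjusted p = 0.409). Serpina3g stayed low, at 1.96 ± 3.20 FPKM in ligated and 4.13 ± 3.28 FPKM in sham SGCs at 3 days (-1.02 ± 0.60, limma adjusted p = 0.646). The 5 other serpins tested at 3 days were all uncalled.

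Isolated neurons 8 days after partial ligation were compared with sham neurons, and in separate libraries the ligated with the opposite side, to see whether the same serpins respond in neurons. Serpinb1a, 1 of 6 serpins, was called on the ligated side, where 0.667% of genes were called (0.659% as higher) and 2.68% had all ligated-side libraries above the others, and its difference ranked 32 by size among 12145 genes. By limma 0 of 6 serpins were called against sham, compared with 0.28% of genes, and Serpinb1a was the 1 with an unadjusted p under 0.05, as were 3.58% of genes. The authors' deposited table calls the same gene, and its libraries did not overlap there either, as was so for 0.692% of genes in that direction. Serpina3n was abundant in the neuron libraries and passed neither test. Of 12 markers of myelinating Schwann cells, 8 are in the neuron table, and they summed to 736 to 2858 FPKM over these libraries. The library highest in Serpina3n (329 FPKM) was also highest in that sum, and the library lowest in Serpina3n (114 FPKM) was lowest in it. The part of Schwann cell RNA in the Serpina3n level was not tested.

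**Figure D4:**
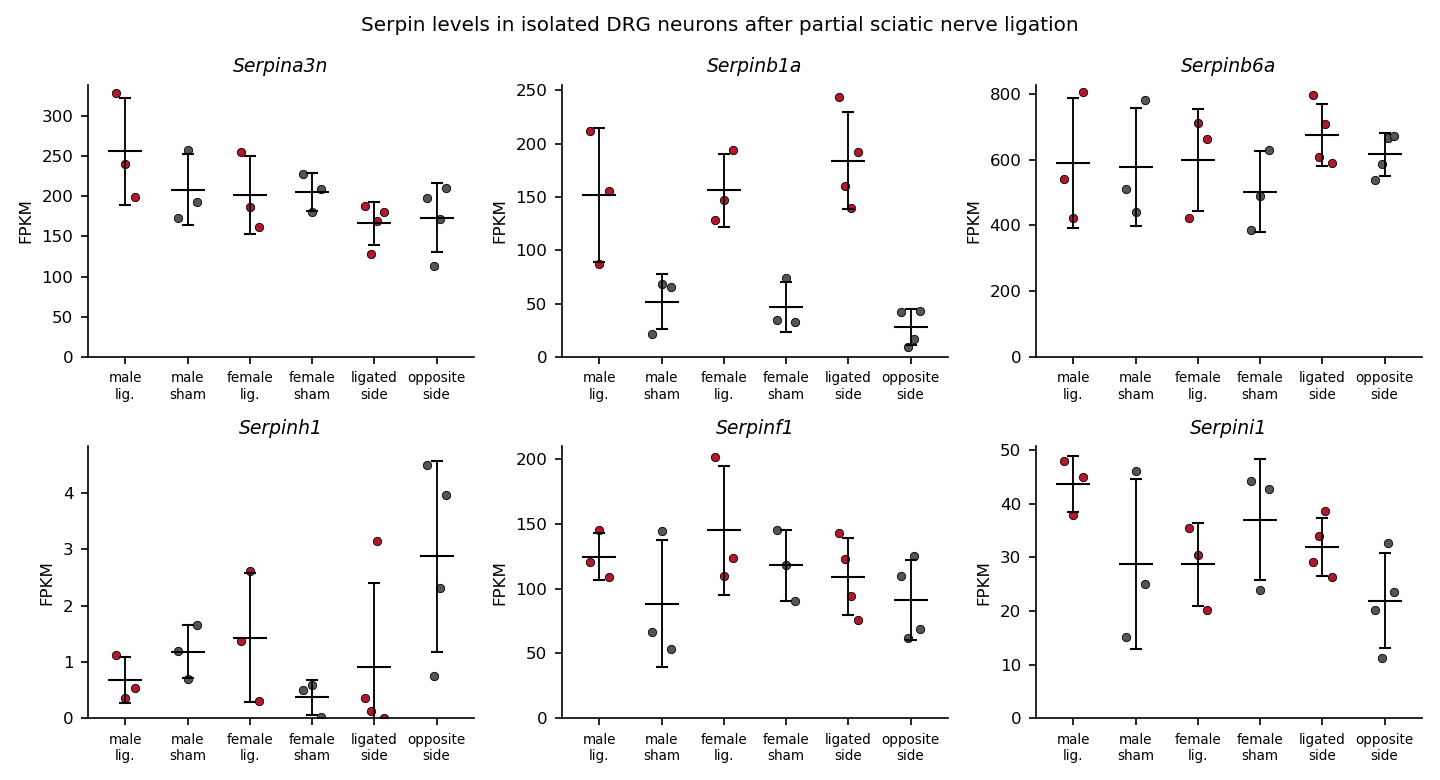
FPKM of 6 serpins in isolated neurons 8 days after surgery, ligated (red) left of sham or opposite side (grey). Points are libraries and bars the mean with SD (n = 3 per sex and operation, n = 4 per side), drawn from 0 upward. Serpinb1a was higher in all 10 ligated libraries than in any sham or opposite-side library, while the Serpina3n groups overlapped throughout.

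Serpinb1a was at 244, 160, 139 and 192 FPKM on the ligated side, against 42.0, 9.38, 17.1 and 43.1 FPKM on the opposite side. The lowest library of the ligated side was above the highest of the opposite side, and the means were 184 ± 45.5 and 27.9 ± 17.2 FPKM. The log2 difference was 2.89 ± 0.44 (95% interval 1.96 to 3.81; limma adjusted p = 0.00144).

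Against sham, Serpinb1a ran from 87.0 through a median of 151 to 212 FPKM in the 6 ligated libraries and from 21.7 through 49.9 to 73.8 FPKM in the 6 sham libraries. The groups did not overlap, and the log2 difference of 1.70 ± 0.36 (95% interval 0.94 to 2.46) missed the threshold narrowly (limma adjusted p = 0.0507). Leaving out each library in turn gave adjusted p between 0.0316 and 0.192, and the gene passed in 3 of 12 such fits. The authors' deposited table gave 1.57 with an adjusted p written as 0 to its 6 decimals.

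In males Serpinb1a was at 152 ± 62.8 FPKM in ligated and 51.8 ± 26.2 FPKM in sham neurons (1.61 ± 0.51, limma adjusted p = 1), and in females at 156 ± 34.1 FPKM in ligated and 47.0 ± 23.2 FPKM in sham neurons (1.80 ± 0.51, limma adjusted p = 0.525; SD, n = 3 each). By limma 0 of 6 serpins were called in either sex, against 0.00823% of genes in males and 0.148% in females. Serpinb1a had an unadjusted p under 0.05 in each sex, as did 2.65% of genes in males and 2.52% in females. The effect in males minus that in females was -0.19 ± 0.72 (95% interval -1.70 to 1.32; limma adjusted p = 1), and no gene was called for this difference by limma, with 130 genes, 1.07%, at an unadjusted p under 0.05.

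Serpina3n in neurons ran from 162 through a median of 220 to 329 FPKM after ligation and from 173 through 201 to 258 FPKM after sham. The ligated libraries spanned the sham libraries on both ends. The log2 difference was 0.12 ± 0.18 (95% interval -0.25 to 0.49; limma adjusted p = 0.999), and the authors' deposited value 0.12 with an adjusted p of 0.879. Between the sides it was at 166 ± 26.7 FPKM on the ligated and 173 ± 43.0 FPKM on the opposite side (-0.04 ± 0.22; 95% interval -0.49 to 0.42; limma adjusted p = 0.973). Both intervals overlap that of SGCs at 3 days (0.39 to 1.14). The tables, the ligation and the day differ, and the difference between glia and neurons was not tested.

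Serpinb6a was the most abundant of the 6 in neurons, at 387 to 807 FPKM over all 20 libraries and in the top ranks of the genes with at least 1 FPKM. Its log2 difference was 0.13 ± 0.19 against sham and 0.13 ± 0.23 between the sides. Serpinf1, at 53.7 to 202 FPKM over the 20 libraries, was at 0.44 ± 0.25 and 0.27 ± 0.30, and Serpini1, at 11.2 to 48.1 FPKM, at 0.19 ± 0.26 and 0.60 ± 0.32. None of the 3 passed, with limma adjusted p between 0.559 and 0.999. The effect on Serpini1 in males minus that in females was 1.06 ± 0.53, with an adjusted p of 1.

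Serpinh1 was nearly missing from neurons, at 0 to 4.49 FPKM. It was at 0.907 ± 1.501 FPKM on the ligated and 2.88 ± 1.69 FPKM on the opposite side (-1.16 ± 0.45, limma adjusted p = 0.365), and at 0.17 ± 0.37 against sham on the log2 scale. At such levels a fold on the log2(FPKM + 1) scale is understated and rests on few reads. Serpine2, the largest serpin of naive SGCs, has no FPKM in the neuron table, and the authors' deposited table of differences lists it at a mean of 17.2 normalised counts, the lowest of the 7, with a log2 fold of -0.13 and an adjusted p of 0.907.

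**Figure D5:**
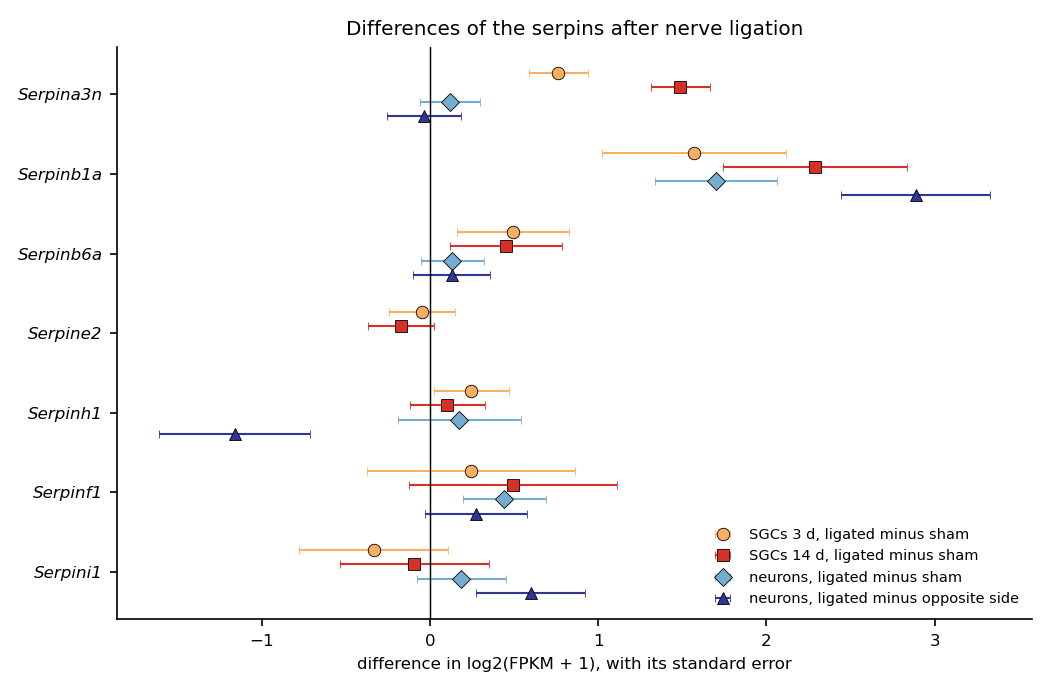
Difference in log2(FPKM + 1) after nerve ligation for each serpin, with its standard error, in 4 contrasts: SGCs at 3 days (circles) and at 14 days (squares) against sham, and neurons against sham (diamonds) and against the opposite side (triangles). Serpina3n was at 0.76 and 1.49 in SGCs and at 0.12 and -0.04 in neurons, and Serpinb1a was between 1.57 and 2.89 in all 4.

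The injury response list was higher in the same neuron libraries as Serpinb1a, with 10 of 17 genes called against sham and 14 of 17 between the sides, all higher. The 5 repair Schwann cell markers of the neuron table, Gap43 and Jun included, also summed higher without overlap. Their sum was 545 to 985 FPKM on the ligated and 251 to 405 FPKM on the opposite side, 637 to 728 FPKM in ligated and 298 to 618 FPKM in sham males, and 725 to 851 FPKM in ligated and 408 to 620 FPKM in sham females. Of these 5 markers, 3 had a positive difference against sham, with a median of 0.11 and 1 called. In males 4 were positive (median 0.38) and in females 2 (median -0.11). Between the sides all 5 were positive, with a median of 0.28 and 1 called. The Gap43 levels given under Other observations are part of these sums, which do not show a rise of every marker. The part of either list's cells in the Serpinb1a values was not tested. Of 17 receptors for proteases and serpin complexes, Sdc1, the cell surface proteoglycan syndecan-1, was the 1 called, at 0.94 (limma adjusted p = 0.0312) against sham and 1.29 (limma adjusted p = 0.00576) between the sides. Of 12 collagen genes, Col5a3 was called between the sides, at 11.8 ± 0.89 FPKM on the ligated and 1.79 ± 1.16 FPKM on the opposite side (2.34, limma adjusted p = 0.042), and none against sham. None of 9 target proteases, 17 other inhibitors, 16 heat shock genes, 20 acute phase and cytokine genes and 22 reactive glia genes was called in either contrast.

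Other serpins were abundant in neurons and uncalled. Serping1 was at 408 ± 93.4 FPKM in ligated and 406 ± 111 FPKM in sham males, and Serpina3g at 207 ± 44.6 FPKM in ligated and 174 ± 46.0 FPKM in sham males. In the same groups Serpina3n was at 256 ± 66.3 FPKM in ligated and 208 ± 44.3 FPKM in sham males. Over both sexes the log2 difference after ligation was 0.08 ± 0.19 for Serpina3g and 0.12 ± 0.18 for Serpina3n. How reads were divided between these related genes is uncertain. All 11 other serpins of the neuron table were tested, and none was called against sham or between the sides. The one nearest to a call was Serpina1e, a liver-type alpha-1 antitrypsin gene, at 10.6 ± 3.89 FPKM on the ligated and 29.9 ± 15.2 FPKM on the opposite side (-1.33 ± 0.33, limma adjusted p = 0.0768). Markers of red blood cells summed to 356 to 24179 FPKM over the neuron libraries, and their part in these values was not tested.

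Over the 20 neuron libraries the genes most like Serpina3n were Acat2 (Pearson r = 0.91), Nsf (0.90), Atp5a1 (0.90), Rbfox1 (0.88) and Atp6v1a (0.88), among 5682 genes. Nsf is a motor of vesicle fusion, Atp5a1 a subunit of the mitochondrial ATP synthase, Rbfox1 a neuronal splicing factor, Atp6v1a a subunit of the vacuolar proton pump and Acat2 an enzyme of acetyl-CoA metabolism. None of the 5 was among the most alike in SGCs. Of the serpins, Serpini1 was at 0.65, Serpinf1 at 0.43, Serpinh1 at 0.09 and Serpinb6a at -0.40, so Serpinb1a, which went with Serpina3n in SGCs at 0.73, was at 0.28 in neurons, a difference that was not tested.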

How the data were processed

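The authors deposited FPKM values per library in 3 tables and, per the file headers, tables with a mean of normalised counts (a signal scaled by size factors), a log2 fold change, its error and an adjusted p-value. In the naive table FPKM is written with decimal commas. Per the submitters' processing notes, STAR, SAMtools, Cufflinks and DESeq2 were used with mm10, with no versions, roles or order. In the authors' deposited tables a negative log2 fold change goes with higher FPKM after ligation (125 of 126, 157 of 158 and 220 of 220 genes past 0.05), so their sign was turned to ligated over sham. One such table names no comparison and was not used here. Library depth is not in the files. Summed over genes, the deposited means of normalised counts came to 17802400 (3-day SGCs), 18932900 (14-day SGCs) and 22889500 (neurons).

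Gene names were matched by identifier to GENCODE M21 (GRCm38), and lines sharing an identifier were summed. Differences were fitted with limma 3.58.1 in R 4.3.3 on log2(FPKM + 1) with a mean-variance trend, over all groups of a table, for genes that reached 1 FPKM in a number of libraries no smaller than the smallest group. P-values had Benjamini-Hochberg adjustment over every gene of the comparison. On this scale the change of low genes is understated. The fits were tested on simulated data. Percentages of summed serpin FPKM were computed per library and averaged. Alternatives were a pseudocount of 0.1, no filter, quantile normalization, a fit of only the groups compared, leaving out each library, and a replicate block. Same-numbered libraries correlated at -0.0758 to 0.186, so no pairing was assumed, though these values cannot exclude a shared animal or day. Tables and figures were made with Python 3.11.15, pandas 2.3.3 and matplotlib 3.10.9.

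The serpins and the gene lists were chosen with earlier results of these data known. All 7 serpins were named in every comparison, other serpins by highest mean FPKM (up to 5 per table) or largest called difference (up to 3), list genes by largest called difference (up to 4 per list), and pattern-alike genes by Pearson correlation (5 per table).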

Additional observations from a re-analysis of the deposited data

Results flagged for a closer look

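Groups of 4 libraries were checked for a library far from the other 3 by Dixon's test, over 54 combinations of serpin and group, and 3 were beyond its 95% critical value, where chance gives about 1 in 20. Serpinb1a was at 9.51 FPKM in SGC library 4 of the 14-day ligated group, whose other libraries were at 58.3 to 65.8 FPKM. The summed neuron markers of that library were also the lowest of its group, at 298 FPKM against 759 to 919 FPKM. Serpinh1 was at 3.15 FPKM in 1 neuron library of the ligated side, with the other 3 at or under 0.353 FPKM. Serpini1 was at 4.38 FPKM in SGC library 1 of the 3-day sham group, with the other 3 at or under 0.63 FPKM. What sets these libraries apart was not tested.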

How the results depend on the processing

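Between naive SGCs and DRGs all 7 serpins kept direction and call under every alternative run, and Serpinb1a kept its call between the sides of ligated mice (2.48 to 3.17). At 3 days no serpin was called under any alternative. Serpinb1a in neurons against sham passed 0.05 without the ligated male library at 87.0 FPKM of this gene, the sham male library at 68.7 FPKM or the sham female library at 73.8 FPKM, so that leaving out 1 library gave 0 to 1 serpins called. For single serpins 764 settings were counted as unchanged. In tested contrasts this meant the same direction and side of the threshold. In untested ones it meant a move smaller than the spread of the 14-day ligated libraries, whatever the sign. There Serpini1 at 14 days ran from -0.39 to 0.092 with 1 library left out. In tested contrasts 18 settings turned the sign of an uncalled difference and 3 gave a call, and 3 moved an untested value by over its spread. The cause was not tested. Counts of genes called moved more. At 3 days 9 genes were called in SGCs, against 14 with a pseudocount of 0.1, 1 with no filter, 4 in a fit of only the groups compared, 1 with a replicate block and 1 to 6 with 1 library left out. At 14 days the count was 1, against 6 in a fit of only the groups compared and 0 to 5 with 1 library left out, and for the difference between the days it was 1, against 1 to 4. In neurons of males it was 1, against 0 with a pseudocount of 0.1, 2 after quantile normalization, 0 in a fit of only the groups compared and 0 to 4 with 1 library left out. With 1 library left out it was 7 to 19 in females (18 in all), 21 to 39 over both sexes (34 in all) and 0 to 1 for the sex difference. Between the sides 81 genes were called, against 36 in a fit of only the groups compared and 62 to 119 with 1 library left out. All 18 turned signs of tested contrasts came from leaving out 1 library. At 3 days Serpine2 ran from -0.18 to 0.17, Serpinf1 from -0.27 to 0.98 and Serpini1 from -0.63 to 0.16. In neurons Serpinb6a ran from -0.23 to 0.26 in males, Serpina3n from -0.23 to 0.093 in females and from -0.22 to 0.085 between the sides. For males minus females Serpinb1a ran from -0.72 to 0.16 and Serpinb6a from -0.48 to 0.0098. Whether the replicate numbers of SGC libraries pair them is not known, and neuron columns carry none. With the numbers as a replicate block, Serpina3n at 3 days was at 0.76 with a limma adjusted p of 0.26. Without library totals, what depth limits cannot be given.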

Other observations

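Because Serpinb1a was the serpin that differed most after ligation in neurons, its pattern was also compared with other genes, a choice made after its values were seen. Over the 20 neuron libraries the most alike of 5682 genes were Gap43 (Pearson r = 0.93), a growth cone protein, Anxa1 (0.91), an anti-inflammatory annexin, Stmn4 (0.91), a stathmin that binds tubulin, Tnfrsf12a (0.90), the receptor of TWEAK, and Cckbr (0.89), a cholecystokinin receptor. Over the 16 SGC libraries after surgery they were Lgals1 (0.90), S100a11 (0.90), Gap43 (0.89), Syt4 (0.88) and Tubb5 (0.86), of which Syt4 is a synaptotagmin of neurons. Gap43 was the 1 gene among the 5 most alike in both preparations. It was at 201 ± 88.2 FPKM in ligated and 43.1 ± 20.5 FPKM in sham SGC libraries at 3 days (SD, n = 4 each), and at 500 ± 201 FPKM on the ligated and 141 ± 23.03 FPKM on the opposite side in neurons (SD, n = 4 each). The libraries share the operation and, in SGCs, the amount of neuronal RNA, and the part of either in these correlations was not tested.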
